A study of Chlamydomonas reinhardtii with 12 samples.

Results

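Among 6 libraries of the parental line of Chlamydomonas reinhardtii grown in darkness, 2 held under 1% of their counts in light-harvesting antenna transcripts and 4 held over 7%. The 2 sides, called low-antenna and high-antenna here, were chosen by that measured share, so every difference between them is given as a description with no test. The deposited table lists 17744 gene identifiers. Of these, 12574 had at least 1 count in each of WT 1, WT 2 and WT 3. Among those, 7686 also had a mean of at least 10 CPM (counts divided by the library total and multiplied by 1000000) on 1 side, and these are called kept. In 3859 of the 7686 kept identifiers, both low-antenna libraries lay beyond all 4 high-antenna libraries, and these are called separated.

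Light-harvesting proteins bind chlorophyll and carotenoids and pass excitation energy to the photosystems. In Chlamydomonas, a green alga, the LHCBM proteins form the trimeric major antenna of photosystem II, LHCB4 and LHCB5 are monomeric linkers between those trimers and the photosystem II core, and the LHCA proteins form the antenna of photosystem I. They are encoded in the nucleus, and the alga can grow without light by using acetate as its carbon source.

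All 6 parental samples were vegetative liquid cultures of the line labelled CC-3403, genotype WT, kept 4 weeks in the dark at 25 °C in acetate-containing TAP medium with 10 µg/mL arginine. The series also holds 6 libraries of phytoene desaturase knockouts (PDSKO), made in the same line with Cas9 ribonucleoprotein and kept as long in the dark, but in TAP without arginine and with a sort by flow cytometry. PDSKO 1 to 4 come from line E10, PDSKO 5 from A2 and PDSKO 6 from D2. RNA was read with CEL-Seq, which counts transcripts from their 3' ends. The labels call the 6 parental samples independent but do not say that each was a culture of its own.

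The low-antenna libraries are WT 2 and WT 3, and the high-antenna libraries are WT 1, WT 4, WT 5 and WT 6. WT 1 to 3 have titles built on X3404VE, whose number differs from that of the labelled line, and WT 4 to 6 have titles of another kind. The labels do not say what X3404VE stands for. These are called the first and the second title set. Within the first set the title with no suffix belongs to the high-antenna WT 1, and the titles with a suffix belong to WT 2 and WT 3. The sources do not say what the suffix denotes. Totals were 30077383 counts in WT 1, 35992976 in WT 2, 14204824 in WT 3, 11768160 in WT 4, 2683856 in WT 5 and 1393032 in WT 6, so depth was not ordered by side. A single count was worth between 0.0278 and 0.718 CPM in these libraries.

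Antenna transcripts took 13.6% of counts in WT 1, 9.22% in WT 4, 8.33% in WT 5 and 7.8% in WT 6. They took 0.427% in WT 2 and 0.391% in WT 3. The widest 95% Wilson interval, which covers counting error only, was that of WT 6, from 7.76% to 7.85%.

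The high-antenna side was not uniform. Over identifiers averaging at least 100 CPM, the log2 ratio of WT 2 to WT 3 had an SD of 0.298, and that of WT 5 to WT 6 had an SD of 0.338. The ratio of WT 1 to WT 4, WT 5 and WT 6 had SDs of 1.57, 1.94 and 2.04. Against the low-antenna libraries the SDs of WT 1 were 1.79 for WT 2 and 1.81 for WT 3, wider than against WT 4 and narrower than against WT 5 and WT 6. WT 1 therefore shared a side with WT 4 to 6 by its antenna share while differing from them across many other identifiers.

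Of the 7686 kept identifiers, 2973 (38.7%) were higher in both low-antenna libraries than in every high-antenna one, and 886 (11.5%) were lower. The gap of an identifier is the lowest value of its higher side over the highest value of its lower side. It reached 2-fold for 681 identifiers on the higher side (8.86%) and for 296 on the lower side (3.85%). Without WT 1 these counts were 1209 and 565, and with TMM scaling 320 and 467, so with TMM the lower identifiers outnumbered the higher ones. Among separated identifiers 77% were higher, but with TMM scaling this share was 53.6% and with RLE scaling 54.2%. The median log2 ratio of low to high over all kept identifiers was 0.53 with CPM, -0.01 with TMM and 0.00 with RLE, so a small positive value with CPM lies within the shift of all genes.

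With CPM the largest gaps belonged to lower identifiers, although more identifiers were higher. A gap of at least 8-fold was found for 17 higher and 68 lower identifiers, and one of at least 64-fold for 1 higher and 12 lower. At least 128-fold was reached by 0 higher and 5 lower identifiers. The lower identifiers in each of these counts include antenna genes, whose share chose the sides, with gaps of up to 508-fold. A single count was worth 0.0278 and 0.0704 CPM in WT 2 and WT 3, but 0.373 and 0.718 in WT 5 and WT 6. At low levels a wide gap was therefore harder to reach for higher identifiers, so the 2 directions are not on the same footing.

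Neither the file nor the reference table gives gene symbols. The symbols in parentheses and the roles come from general knowledge of Cre identifiers, and this pairing was not checked. The gene lists were written with earlier results of these data known. Of 187 list identifiers in the file, 153 were kept and 96 of those were separated, beside 3859 of all 7686 kept identifiers. The 96 include 17 antenna identifiers, whose share chose the sides.

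The antenna list has 21 identifiers, of which 18 were kept. In 17 of the 18 the low-antenna libraries lay below all others, 16 of them by a gap of at least 2-fold, and the remaining one overlapped. The median log2 ratio of low to high was -4.47, beside 0.53 for all kept identifiers. These transcripts chose the sides, so their count is no finding, but the size of the difference varied widely among them. In bulk RNA, fewer cells carrying a transcript and less transcript per cell cannot be told apart.

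The major antenna held the largest gaps. Cre01.g066917 (LHCBM1) stood at 36532 CPM in WT 1, 28194 in WT 4, 25923 in WT 5 and 22849 in WT 6, against 30.1 in WT 2 and 45 in WT 3. Its gap of 508-fold was the largest of the 17. Cre04.g232104 (LHCBM3) was even across the high-antenna side, with 12054, 12541, 13100 and 13363 CPM in WT 1, 4, 5 and 6, against 103 in WT 2 and 82.1 in WT 3. Cre06.g283950 (LHCBM4) had 2179 CPM in WT 1 and 234, 311 and 257 in WT 4, 5 and 6, against 1.08 in WT 2 and 1.2 in WT 3.

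The remaining LHCBM members ranged widely. Cre12.g548400 (LHCBM2) had 421 CPM in WT 2 and 364 in WT 3, against 8684, 4506, 2420 and 2299 in WT 1, 4, 5 and 6, a gap of 5.46-fold. Cre06.g285250 (LHCBM6) had a gap of 10.1-fold and Cre03.g156900 (LHCBM5) one of 38.1-fold. Cre12.g548950 (LHCBM7) was not kept because WT 3 had 0 counts, which allows up to 0.211 CPM. It stood at 0.222 CPM in WT 2 and between 6090 and 8137 CPM in the high-antenna libraries. Cre06.g284250 (LHCBM8), also at 0 counts in WT 3 and not kept, had 1.25 CPM in WT 2 against 709, 49.3, 42.8 and 56 in WT 1, 4, 5 and 6. LHCBM genes have near-identical copies and reads with several places were discarded, so the split of counts among them is uncertain.

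The linker proteins differed least among the separated photosystem II antenna genes. Cre17.g720250 (LHCB4) stood at 1707 CPM in WT 2 and 1718 in WT 3. In WT 1, 4, 5 and 6 it stood at 8425, 8122, 12040 and 12301 CPM. Its gap was 4.73-fold, as was that of Cre16.g673650 (LHCB5), at 399 and 326 CPM against 1887 to 3009. The kept identifier that overlapped was Cre02.g110750 (LHCB7), a low-level antenna relative, with 25.4 and 24.6 CPM in WT 2 and 3 and 27.6, 11, 3.35 and 14.4 in WT 1, 4, 5 and 6.

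All 9 photosystem I antenna genes were lower in WT 2 and WT 3, with gaps from 1.26-fold to 83.6-fold. Cre06.g278213 (LHCA6) had 17.4 CPM in WT 2 and 19.7 in WT 3, against 3729, 1648, 1738 and 1738 in WT 1, 4, 5 and 6. Several LHCA genes differed more within the high-antenna side than LHCA6 did. Cre10.g425900 (LHCA5) had 4147 CPM in WT 1, 1184 in WT 4, 187 in WT 5 and 164 in WT 6, a 25.3-fold span, against 16.2 and 7.74 in WT 2 and 3. For Cre11.g467573 (LHCA3) the gap was 1.26-fold, since WT 6 at 388 CPM lay close to WT 2 at 307.

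**Figure D1:**
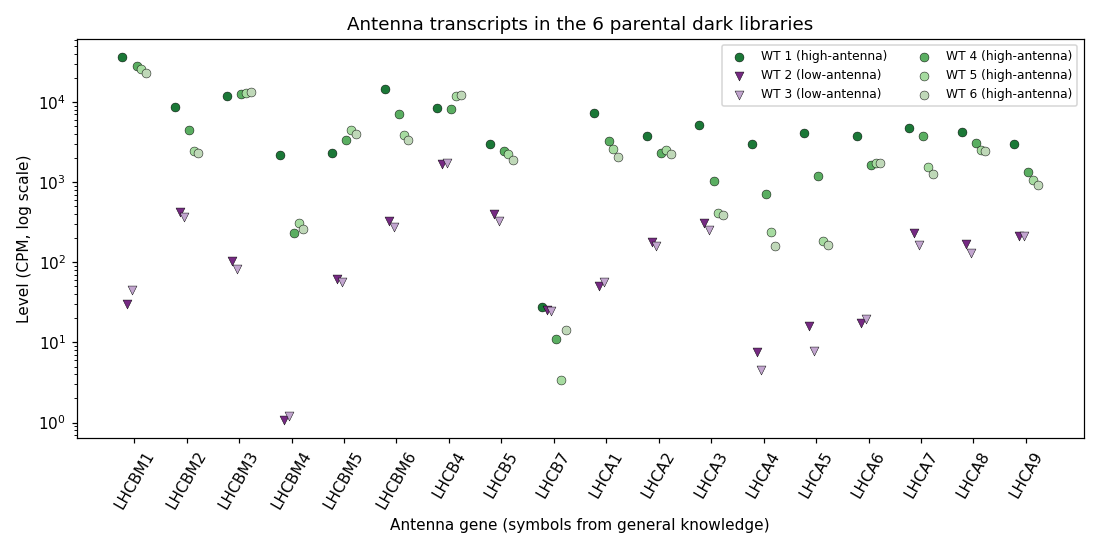
Level in CPM (log scale) of the 18 kept antenna identifiers in each of the 6 parental libraries, with circles for high-antenna and triangles for low-antenna libraries. The triangles lie below all circles for 17 identifiers, from a 508-fold gap for LHCBM1 to 1.26-fold for LHCA3, and overlap for LHCB7.

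Because the members differed by unequal folds, the make-up of the remaining antenna transcripts was unlike that of the high-antenna side. The major antenna was 22.2% and 21.1% of antenna counts in WT 2 and WT 3, and 62.7% to 68.6% in the high-antenna libraries. LHCB4 alone was 39.9% and 43.9% of antenna counts in WT 2 and WT 3, against 6.21%, 8.81%, 14.4% and 15.8% in WT 1, 4, 5 and 6. The photosystem I antenna gave 28% and 26% in the low-antenna libraries, inside or near the range of 14.6% to 28.8% in the others.

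For the PDSKO libraries, which the choice of sides did not use, the same make-up is given as a description only. Antenna transcripts were 8.17% of counts in PDSKO 1, 0.207% in PDSKO 2, 0.447% in PDSKO 3, 0.649% in PDSKO 4, 0.218% in PDSKO 5 and 1.72% in PDSKO 6. In PDSKO 1 LHCB4 was 6.45% of antenna counts, and it was 53.8%, 39.5%, 66%, 44.4% and 28.1% in PDSKO 2 to 6. Antenna counts were few there, with 13 in PDSKO 2, 81 in PDSKO 3 and 106 in PDSKO 4.

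**Figure D2:**
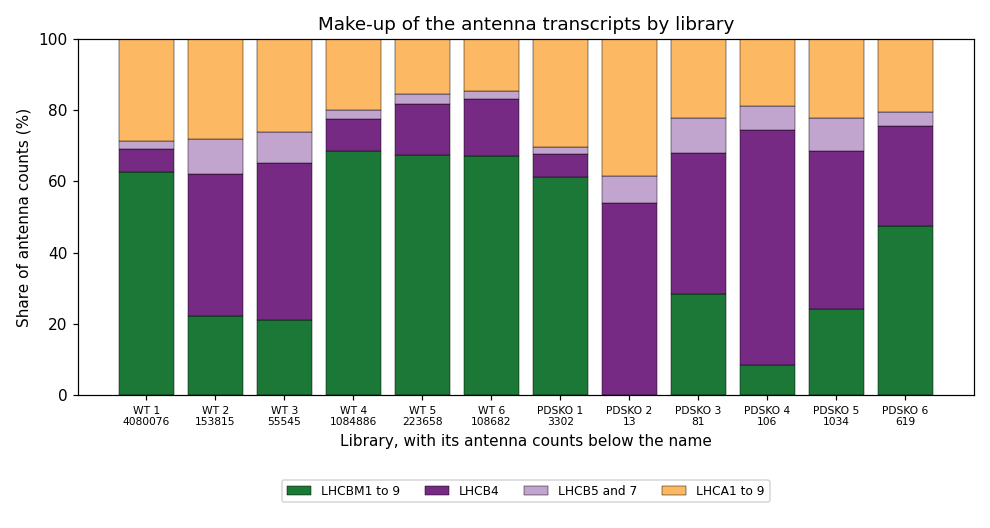
Share of antenna counts (%) taken by the major antenna genes, LHCB4, LHCB5 with LHCB7, and the photosystem I antenna genes in each of the 12 libraries, with the number of antenna counts below each name. LHCB4 takes 39.9% and 43.9% in WT 2 and WT 3 and at most 15.8% in the other WT libraries.

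Genes of the photosystems themselves were mostly lower on the low-antenna side too, by smaller gaps. Of 22 kept identifiers of photosystem subunits and electron carriers, 16 were lower, 0 higher and 6 overlapped, beside 11.5% lower and 38.7% higher over all. Their median log2 ratio was -1.74, beside 0.53. All 9 photosystem I subunits on the list were lower. Cre07.g330250 (PSAH), a small photosystem I subunit, had 213 CPM in WT 2 and 198 in WT 3 against 2934, 1810, 1501 and 1637 in WT 1, 4, 5 and 6. Cre10.g420350 (PSAE) had a gap of 5.44-fold.

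All 3 subunits of the oxygen-evolving complex, which splits water at photosystem II, were lower. Cre09.g396213 (PSBO), its stabilising subunit, stood at 825 and 793 CPM in WT 2 and WT 3 and at 4881, 4771, 3583 and 3986 in WT 1, 4, 5 and 6. Cre12.g550850 (PSBP1) had a gap of 3.41-fold and Cre08.g372450 (PSBQ) one of 2.95-fold. The largest gap of the list was that of Cre02.g082750 (PSBX), a small photosystem II subunit, at 13.6-fold. Cre03.g182551 (PCY1), plastocyanin, the copper protein that carries electrons to photosystem I, had a gap of 3.95-fold.

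The overlapping 6 were genes of the cytochrome b6f complex, the ATP synthase and ferredoxin-NADP reductase. For Cre11.g467689 (PETC), the Rieske protein of cytochrome b6f, WT 1 stood at 1615 CPM, WT 2 and 3 at 493 and 460, and WT 4, 5 and 6 at 264, 178 and 146. The low-antenna libraries thus lay between WT 1 and WT 4 to 6. The same order held for Cre06.g259900 (ATPC) and Cre11.g467569 (ATPD), subunits of the plastid ATP synthase. For these genes the direction depends on which high-antenna library is used.

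Of 13 kept identifiers of the Calvin-Benson cycle, which fixes carbon, 2 were higher, 3 lower and 8 overlapped, beside 38.7% higher and 11.5% lower over all. Against WT 1 alone 10 were lower, beside 32.3% of all. Cre02.g120100 (RBCS1), a Rubisco small subunit, had 439 and 474 CPM in WT 2 and WT 3 against 3244, 3635, 4549 and 4143 in WT 1, 4, 5 and 6. The other small subunit, Cre02.g120150 (RBCS2), overlapped, with 20096 and 23191 CPM in WT 2 and WT 3 and 37820, 17673, 16007 and 21033 in WT 1, 4, 5 and 6. The 2 copies are near-identical in sequence, so the division of reads between them is uncertain.

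Rubisco activase went the other way. Cre04.g229300 (RCA1), which frees Rubisco of bound inhibitors, stood at 2956 and 2815 CPM in WT 2 and WT 3 against 643, 319, 205 and 187 in WT 1, 4, 5 and 6, a gap of 4.38-fold. Cre12.g554800 (PRK1), phosphoribulokinase, was lower by a gap of 2.52-fold.

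In chlorophyll synthesis 7 of 16 kept identifiers were lower and 0 higher, with 3 lower by at least 2-fold, beside 11.5% and 3.85% of all kept identifiers. With TMM scaling 11 were lower, beside 20.3% of all. With RLE or without WT 6, 11 were also lower, beside 19.9% and 14.3% of all. Cre03.g158000 (GSA1), which makes aminolevulinate, the precursor of all tetrapyrroles, had 37.3 and 23.7 CPM in WT 2 and WT 3 against 231, 192, 99.1 and 103 in WT 1, 4, 5 and 6. Cre12.g510050 (CTH1), a cyclase of the chlorophyll branch, had a gap of 2.44-fold. Cre01.g015350 (POR1), the light-dependent protochlorophyllide reductase, overlapped, at 203 and 145 CPM against 156 to 732.

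Of the 8 kept carotenoid genes 6 overlapped, beside 3827 of all 7686 kept identifiers. Their median log2 ratio was 0.03, beside 0.53 for all. The exception with a large gap was Cre04.g215050 (CHYB1), a carotene hydroxylase that leads to xanthophylls, at 6 and 2.11 CPM in WT 2 and WT 3 against 143, 125, 101 and 90.5 in WT 1, 4, 5 and 6. Its gap was 15.1-fold. Cre12.g509650 (PDS1), phytoene desaturase, overlapped, with 66.6 and 46.6 CPM in WT 2 and WT 3 against 113, 74.9, 21.6 and 47.4 in WT 1, 4, 5 and 6. Of 5 identifiers for photoprotective antenna-like proteins, LHCSR and PSBS, 0 were kept, and none exceeded 8.03 CPM in any of the 6 libraries.

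The carbon concentrating mechanism brings inorganic carbon to Rubisco in the pyrenoid. Of its 6 kept identifiers 4 were higher in WT 2 and WT 3 and 0 lower, beside 38.7% higher over all kept identifiers. With TMM or RLE scaling 3 were higher, beside 23.4% and 23.5% of all, and Cre06.g307500 (LCIC) was not separated. Cre02.g097800 (HLA3), a bicarbonate transporter, had 22 and 18.7 CPM in WT 2 and WT 3 against 2.39, 4.76, 0 and 0.718 in WT 1, 4, 5 and 6. Cre10.g436550 (EPYC1), the linker that packs Rubisco into the pyrenoid, had 2506 and 1926 CPM against 1137, 467, 440 and 339.

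Acetate enters metabolism through the glyoxylate cycle. Of 9 kept identifiers 5 were higher and 0 lower, none by 2-fold, beside 38.7% higher over all kept identifiers. With TMM scaling 2 were higher, beside 23.4% of all, and RLE also gave 2, beside 23.5% of all. Cre06.g282800 (ICL1), isocitrate lyase, which opens that cycle, had 8471 and 9104 CPM in WT 2 and WT 3 against 5440, 4292, 3335 and 2897 in WT 1, 4, 5 and 6. The separation of Cre03.g149100 (CIS2), a citrate synthase, was the smallest of any list member, a gap of 1.01-fold.

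Fermentation genes lay on both sides. Of 9 kept identifiers 5 were higher and 3 lower, beside 38.7% and 11.5% of all kept identifiers. With TMM scaling 4 were higher, beside 23.4% of all, and with RLE 3, beside 23.5% of all. HYDA1 was not separated with RLE. The higher ones with CPM were hydrogenases and their maturation factors, with acetate kinase. Cre03.g199800 (HYDA1) had 91.1 and 96.3 CPM in WT 2 and WT 3 against 50, 48.6, 61.9 and 48.8 in WT 1, 4, 5 and 6, and Cre09.g396600 (HYDA2) had a gap of 1.53-fold. Cre17.g746997 (ADH1), the aldehyde-alcohol dehydrogenase that makes ethanol, was lower by 2.15-fold, at 279 and 210 CPM against 1152, 1217, 805 and 599.

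In starch metabolism 4 of 7 kept identifiers were higher and 0 lower, beside 38.7% higher over all. With antenna counts left out of the total 2 of the 4 stayed so, beside 32% of all. With TMM or RLE scaling 1 did, beside 23.4% and 23.5% of all. That one was Cre06.g307150 (AMYB1), a beta-amylase that breaks starch down, at 391 and 373 CPM in WT 2 and WT 3 against 127, 89.1, 70.4 and 55.3 in WT 1, 4, 5 and 6. Cre03.g193500 (PGD1), a galactolipid lipase that feeds oil synthesis, had a gap of 5.59-fold, with 128 CPM in both low-antenna libraries against 1.44 to 22.9.

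Among 13 kept heat shock and chaperone identifiers 4 were higher and 4 lower, beside 38.7% and 11.5% of all. Cre03.g145787 (HSP22C), a small heat shock protein, had 19.4 and 23.2 CPM in WT 2 and WT 3 against 2.26, 0.17, 0 and 0 in WT 1, 4, 5 and 6. Cre02.g080700 (BIP1), the chaperone of the endoplasmic reticulum, was lower by 2.86-fold.

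The iron assimilation genes FEA1 and FEA2 encode related secreted proteins and went opposite ways. Cre12.g546550 (FEA1) had 43.6 and 46.3 CPM in WT 2 and WT 3 against 1882, 2508, 1721 and 1685 in WT 1, 4, 5 and 6, a gap of 36.4-fold. Cre12.g546600 (FEA2) had 56.7 and 53.7 CPM against 18.1, 8.41, 11.2 and 20.8. Among photoreceptors, 3 of 4 kept identifiers were higher, beside 38.7% of all, with a gap of only 1.03-fold for Cre01.g002500 (COP1). Cre02.g085257 (CHR2), a channelrhodopsin of the eyespot, had 24.2 and 20.9 CPM against 6.28, 4.33, 0.745 and 6.46.

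Of the genes often used as references, 3 of 6 kept identifiers were lower and 1 higher, beside 11.5% and 38.7% of all. Cre06.g278222 (RACK1) was higher with a gap of 1.45-fold, at 2761 and 2707 CPM in WT 2 and WT 3 against 1866, 419, 148 and 141 in WT 1, 4, 5 and 6. Its level within the high-antenna side spanned 13.3-fold.

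**Figure D3:**
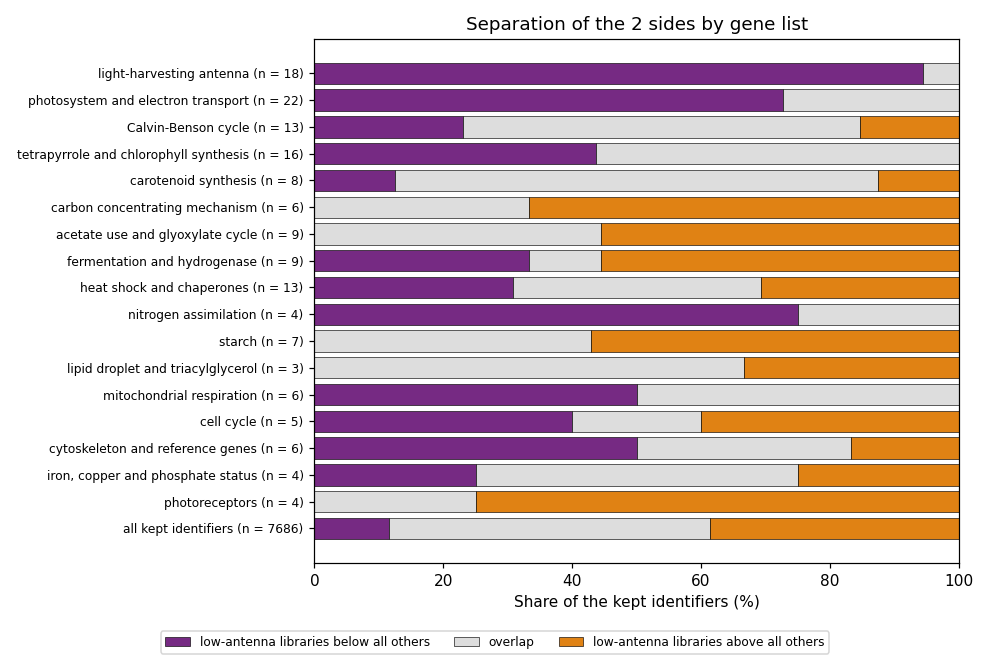
Share of the kept identifiers of each gene list (%) in which the low-antenna libraries lay below all others, overlapped, or lay above all others, with all 7686 kept identifiers in the bottom bar. The photosystem list is lower in 16 of 22, beside 11.5% of all kept identifiers, and the antenna list, whose share chose the sides, in 17 of 18.

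Most separated identifiers lay outside these lists. The widest gap on the higher side was that of Cre13.g603550, at 1047 and 951 CPM in WT 2 and WT 3 against 8.25, 14, 2.98 and 12.9 in WT 1, 4, 5 and 6, a 67.8-fold gap. In the PDSKO libraries, which did not choose it, it stood at 0, 1752, 1270 and 612 CPM in PDSKO 1 to 4, at 71.6 in PDSKO 5 and at 1775 in PDSKO 6, where 1 count was worth 2.1 to 159 CPM. Cre14.g619050 had 57.4 and 55 CPM against 1.86, 0.595, 0 and 0, a gap of 29.5-fold. On the lower side Cre17.g717900 had 1.86 and 1.62 CPM against 634, 1926, 1062 and 873, a gap of 341-fold. Cre02.g077850 had 2.61 and 2.53 CPM against 505, 812, 634 and 568. The 12 identifiers with the widest gaps among well-measured higher ones had gaps from 7.15-fold to 67.8-fold and none was on a list. Of the 12 on the lower side, from 67.7-fold to 508-fold, 4 were antenna genes.

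In the RefSeq gene order, 10.9% of the identifiers higher by at least 2-fold had a neighbour of the same call, beside 8.86% of all kept identifiers with that call. For those lower by at least 2-fold it was 6.76%, beside 3.85%. An identifier can have a neighbour on either side or none that was kept, so these shares are not on the same footing. The only runs of 3 were 2 on the higher side.

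Within the first title set the 2 low-antenna libraries can be set against WT 1 alone. Of 7896 identifiers then kept, 4504 (57%) were higher and 2554 (32.3%) lower. With 1 library on the high-antenna side separation is easier to reach, so these counts are not on the same footing as 2973 and 886. Among identifiers separated from all 4 high-antenna libraries, WT 1 lay nearer to the low-antenna libraries than to WT 4 to 6 for 32.1% of the higher and 28.6% of the lower ones. That share was 11% and 11.1% at gaps of at least 2-fold. It was 48.8% over all kept identifiers and 66.5% among overlapping ones. Separation requires WT 1 to lie on the same side of the low-antenna libraries as WT 4 to 6. The choice itself therefore lowers this share, which is no measure of likeness between WT 1 and WT 4 to 6.

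Some identifiers separate by title set instead. For 307 identifiers WT 1 to 3 all had 0 counts while WT 4 to 6 averaged at least 10 CPM, and the reverse held for 3. Among the 307 was Cre05.g234550 (FBA3), a plastid aldolase, at 1945, 1002 and 907 CPM in WT 4, 5 and 6. Cre09.g386650 (ANT1), a mitochondrial ADP/ATP carrier, had 1 count in WT 1, 0 in WT 2 and WT 3, and 2125, 2514 and 2517 CPM in WT 4, 5 and 6. Both were at 0 CPM in PDSKO 1 to 4, where 1 count was worth 24.7 to 159 CPM. In PDSKO 5 and 6, FBA3 had 185 and 971 CPM and ANT1 had 663 and 388. Zero counts in WT 1 to 3 are therefore not read as absence of the transcript, and their source was not tested.

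Title set also touches members that passed the rule. In 11 lower identifiers WT 1 lay within 1.5-fold of a low-antenna library while WT 4 to 6 lay beyond 8-fold. Cre12.g530650 (GLN2), a glutamine synthetase, is 1 of them, at 2.39, 1.78 and 1.62 CPM in WT 1, 2 and 3 and 1365, 1664 and 1413 in WT 4, 5 and 6. Its gap was 1.35-fold, although its log2 ratio of side means was -9.35. The part of title set in these values was not tested.

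**Figure D4:**
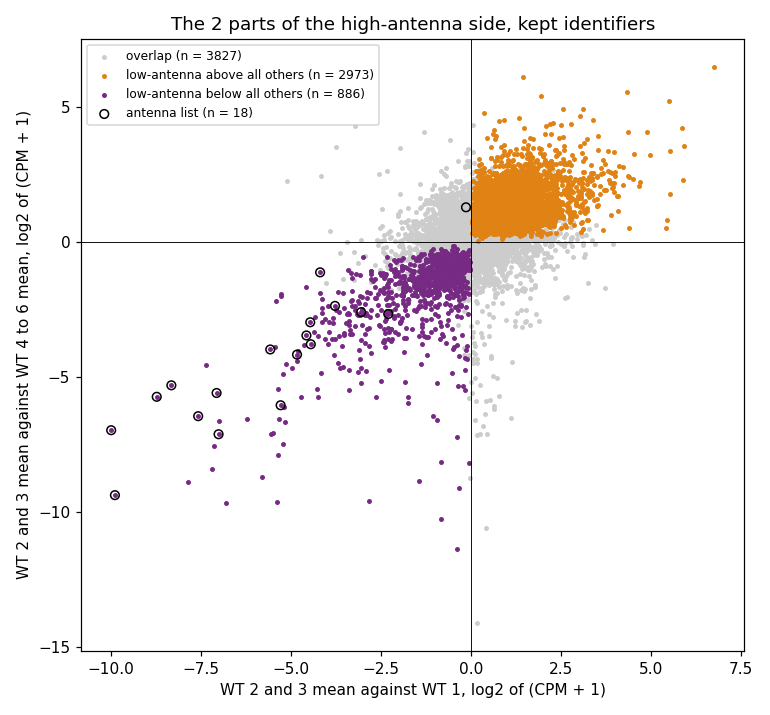
Log2 of the mean CPM plus 1 of WT 2 and WT 3, minus that of WT 1 (horizontal) and minus that of WT 4 to 6 (vertical). There is 1 point per kept identifier. Orange points (2973) are higher and purple points (886) lower in both low-antenna libraries than in all others, and ringed points are the 18 kept antenna identifiers. Purple points near 0 on the horizontal axis are identifiers for which WT 1 lay close to WT 2 and WT 3.

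The PDSKO libraries took no part in choosing the identifiers, and the summed share of each set is given there as a description only. The 681 identifiers higher by at least 2-fold held 2.5% of counts in PDSKO 1, 11.1% in PDSKO 2, 9.7% in PDSKO 3 and 9.65% in PDSKO 4, all of line E10. They held 3.23% in PDSKO 5 (A2) and 3.24% in PDSKO 6 (D2). In the parental libraries the same identifiers held 9.63% in WT 2, 9.65% in WT 3 and 1.68% to 2.52% in the others, which the choice fixes.

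The lowest of PDSKO 2 to 4 was 3.85 times PDSKO 1, with a range of 3.46 to 4.29 from the bounds of their Wilson intervals. With the identifiers chosen without WT 1 this ratio was 1.44. PDSKO 1 bears the title with no suffix in its set, as WT 1 does, and the other E10 titles bear a suffix. Cre17.g700950 (FDX5), a ferredoxin, had 234 CPM in WT 1 and 173 in PDSKO 1, and at most 2.63 in every other library. What WT 1 and PDSKO 1 have in common was not tested, so the E10 shares are no independent check. Library totals of the E10 samples were 40429, 6279, 18105 and 16329 counts, far below the parental ones.

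The 280 identifiers lower by at least 2-fold, with antenna genes left out, held 6.73% of counts in PDSKO 1 and 1.59%, 1.5% and 1.44% in PDSKO 2 to 4. PDSKO 5 had 2.42% and PDSKO 6 had 4.39%. PDSKO 1 was 4.22 times the highest of PDSKO 2 to 4, with a range of 3.35 to 5.32, and 2.78 times when the identifiers were chosen without WT 1. The 4 E10 libraries are of 1 line, the labels do not say what sets PDSKO 1 apart, and no difference among them was tested.

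**Figure D5:**
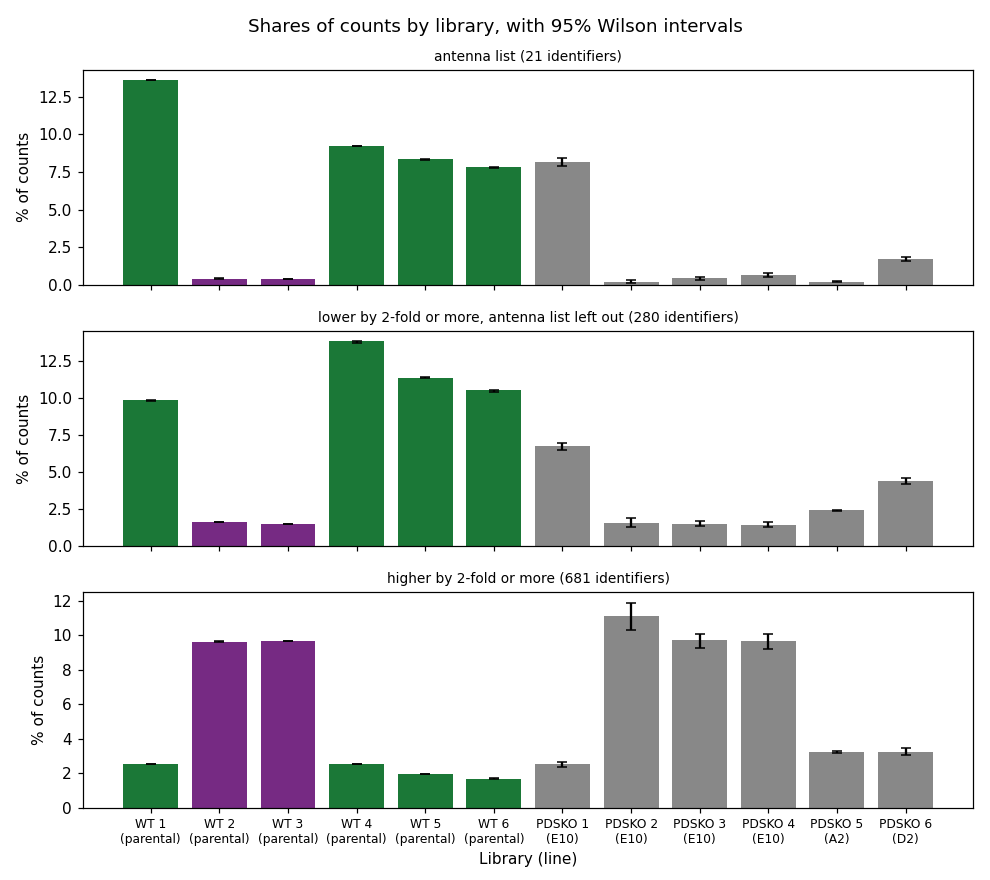
Share of all counts (%) held by the 21 antenna identifiers, the 280 other identifiers lower by at least 2-fold and the 681 higher by at least 2-fold, in each of the 12 libraries, with 95% Wilson intervals. PDSKO 1 holds 8.17%, 6.73% and 2.5%, and PDSKO 2 to 4 hold at most 0.649%, at most 1.59% and at least 9.65%.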

How the data were processed

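The authors deposited whole-number counts for each gene identifier. They used BWA MEM on read 2 against the 281_v5.6 transcriptome and MapAndGo for counting, per the labels' protocols, and dropped reads that fitted more than 1 place. The submitters' processing notes also name edgeR, with no version. The collapse of molecular identifiers is not given in the sources available here. Columns were matched to samples by title, and 0 columns were left unmapped.

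CPM was computed from each library's total. An identifier was separated when both low-antenna libraries lay beyond all 4 others. Members, lists and alternatives were chosen with earlier results of these data known, and the sides were selected on measured values, so no test was run. Examples were the 12 widest gaps and the 8 highest levels in each direction among separated identifiers with at least 50 CPM and 10 counts, and list members. Those outside the lists are given mostly as ranges. Some overlapping list members were named after their values were seen. Scaling factors came from edgeR 4.0.16 in R 4.3.3, and the rest from Python 3.11.15 with numpy 2.4.6, pandas 2.3.3, scipy 1.17.1 and matplotlib 3.10.9. The separation step was tested on simulated data with a uniform high-antenna side, which the real libraries do not have. Gene order came from the RefSeq table (assembly v5.5), where 17742 identifiers had a locus tag. Alternatives were other scalings, level and count minimums, thinning, each library left out, and the first title set alone.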

Additional observations from a re-analysis of the deposited data

Results flagged for a closer look

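In 11 of 94 genes and 3 of 6 list shares 1 library stood far from the other 5 of its group, by the gap to its nearest neighbour over the whole range. Chance alone would set apart about 1 in 20 groups of 6 values drawn from 1 normal distribution. The parental libraries fall into unlike sets, so 11 of 94 cannot be read against that rate. PDSKO 1 stood above the other PDSKO libraries with 8.17% of counts in antenna transcripts and 4.8% in photosystem and electron transport transcripts. WT 1 stood above the other parental libraries with 5.84% of counts in Calvin-Benson transcripts.

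WT 1 also stood above the other parental libraries for 5 antenna genes, with 2179 CPM for LHCBM4, 709 for LHCBM8, 2989 for LHCA4, 4147 for LHCA5 and 5145 for LHCA3. The same held for 6 overlapping genes. WT 1 had 1615 CPM for PETC, 901 for FNR1 (Cre11.g476750, ferredoxin-NADP reductase) and 37820 for RBCS2. It had 5850 CPM for GAP3 (Cre01.g010900, a glyceraldehyde-3-phosphate dehydrogenase), 6184 for ACS3 (Cre07.g353450, an acetyl-CoA synthetase) and 1245 for HSP70A (Cre08.g372100, a chaperone). What sets WT 1 apart was not tested.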

How the results depend on the processing

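The counts moved with scaling, with the level and count minimums and with the make-up of the high-antenna side. In this order, identifiers higher, higher by 2-fold, lower and lower by 2-fold numbered 1714, 320, 1486 and 467 with TMM, and 1726, 328, 1460 and 455 with RLE. They numbered 1050, 305, 429 and 168 at a minimum of 50 CPM, and 4504, 1901, 2554 and 848 in the first title set alone. With 10 counts required in each library 1631 were higher and 314 higher by 2-fold. Leaving out 1 library gave 3144 to 3692 higher, 758 to 1209 higher by 2-fold, 926 to 1401 lower and 304 to 565 lower by 2-fold. In each of the 4 counts the highest value came without WT 1. Chlorophyll synthesis had 11 lower with TMM and RLE, 16 in the first title set and 7 to 11 with 1 library left out. The Calvin-Benson list had 10 lower in the first title set. Acetate genes higher numbered 2 with TMM and RLE, 3 after thinning and 5 to 8 with 1 library left out. Starch genes higher numbered 1 with TMM and RLE and 2 without antenna counts in the total, and fermentation genes 3 with RLE. Over all kept identifiers, 23.4% were higher and 20.3% lower with TMM, and 23.5% and 19.9% with RLE. In the first title set 57% were higher and 32.3% lower. After thinning 35.4% were higher, and without antenna counts in the total 32%. With 1 library left out 40.7% to 47.9% were higher and 12% to 18.2% lower. The E10 ratio of the higher set was 5.2 with TMM, 4.92 with RLE, 4.51 without antenna counts in the total, 2.81 in the first title set and 1.44 to 3.88 with 1 library left out, lowest without WT 1. That of the lower set was 2.29 in the first title set and 2.78 to 4.25 with 1 library left out. The cause of these moves was not tested. Of 89 genes examined singly, 25 had another call under at least 1 of the 15 alternatives. The other 64 kept their call wherever the filters kept them, which for some was not under every alternative. With 10 counts required in each library, Cre13.g603550, Cre14.g619050, HLA3, HSP22C, PGD1 and CHR2 were not kept and so not examined. No separated one changed sign, and 12 of 14 overlapping ones did under at least 1. No paired analysis was possible because the comparison lies within 1 group and has no test. Low depth limits the PDSKO values.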
